A study of Homo sapiens with 3 samples.

Results

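Mitochondrial ribosomal protein genes were examined after siRNAs against TMPO-AS1, a long non-coding RNA, in the breast cancer line MDA-MB-231, which lacks the estrogen and progesterone receptors and HER2 amplification. The members were all genes with a symbol of the form MRPL or MRPS plus a number (a final letter A, B or C allowed, pseudogenes left out) whose probe set carried exactly 1 symbol. This gave 75 genes of 33616 with a value, 48 named for the large subunit (MRPL) and 27 for the small subunit (MRPS). A total of 74 of the 75 passed a filter on dim genes (mean log2 signal of 4.42 or more), as did 16808 genes in all. The filter left out MRPS12, the protein of the decoding centre, with log2 signals of 3.67 and 4.79 with siTMPO-AS1 #1 and #2, against 3.85 with siControl.

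There were 3 arrays, each of RNA taken 48 hours after transfection. One held cells given siTMPO-AS1 #1, one cells given siTMPO-AS1 #2 and one cells given control siRNA (siControl). A log2 ratio here is an siRNA array's log2 signal less the control array's, and both ratios share that single control. Neither siRNA had a repeat array, so each ratio is a value with no error of its own, and the labels do not say whether the arrays came from separate cultures. In bulk RNA, fewer cells of a type and less RNA per cell cannot be told apart.

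The mitochondrial ribosome is built in the mitochondrial matrix from ribosomal RNAs made there and from proteins encoded in the nucleus and imported. It translates the few mRNAs of mitochondrial DNA, which encode core subunits of the respiratory chain and ATP synthase. Its small subunit binds mRNA and reads codons, and its large subunit joins amino acids and releases the chain through an exit tunnel that faces the inner membrane. Some of its proteins have relatives in all ribosomes (universal families), some only in bacterial ones (bacterial families), and many are found only in mitochondria. Symbols do not always give the subunit, since MRPS18A and MRPS30 sit in the large subunit.

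TMPO-AS1 itself had log2 signals of 4.37 and 4.28 with siTMPO-AS1 #1 and #2, against 4.83 with siControl (log2 ratios -0.46 and -0.55; limma mean -0.51, SE 0.44, adjusted p = 1.00). Both siRNA signals of TMPO-AS1 lay below 4.42, the value used to filter gene means, and the control signal lay little above it. How far its RNA fell cannot be read from ratios of signals this dim. VIM, CD44, CAV1 and AXL, markers of this mesenchymal-like line, had log2 signals between 12.31 and 16.52 on the 3 arrays. SPARC lay between 2.82 and 3.70. Of the 5 luminal markers, ESR1, PGR and FOXA1 were below the filter, KRT18 had log2 ratios of -0.70 and 0.90 with siTMPO-AS1 #1 and #2, and GATA3 had 1.41 and 0.36. The 4 immune markers with a value stayed below 4.65 on every array. Of the 5 fibroblast markers, LUM had log2 ratios of 1.13 and 0.62, COL1A1 0.19 and 1.22, COL1A2 0.01 and 0.47 and PDGFRB -0.29 and -0.63, while DCN was below the filter. The part of any of these in the results below was not tested.

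Promoter sequences are shown for 6 members past 1.5-fold with 1 or both siRNAs. Some of the letters marked in them also occur in other members. The 6 were picked after their values were seen. They come from RefSeq (GRCh38.p14), each running from 150 bases before the first listed start to 30 after it, 5′ to 3′ on the strand of the gene. Capitals mark, on either strand, matches to CCGGAAGT (recognised by ETS factors), to GATGGCGG (part of a YY1 element) or to the ZNF143 element.
MRPL47: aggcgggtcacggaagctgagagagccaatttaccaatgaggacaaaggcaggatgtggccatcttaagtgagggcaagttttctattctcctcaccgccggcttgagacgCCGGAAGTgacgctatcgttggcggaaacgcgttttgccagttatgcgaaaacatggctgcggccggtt
MRPL24: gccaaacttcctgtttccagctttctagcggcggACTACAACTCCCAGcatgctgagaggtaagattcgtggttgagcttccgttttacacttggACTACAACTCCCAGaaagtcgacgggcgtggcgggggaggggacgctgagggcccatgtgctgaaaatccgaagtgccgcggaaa
MRPL42: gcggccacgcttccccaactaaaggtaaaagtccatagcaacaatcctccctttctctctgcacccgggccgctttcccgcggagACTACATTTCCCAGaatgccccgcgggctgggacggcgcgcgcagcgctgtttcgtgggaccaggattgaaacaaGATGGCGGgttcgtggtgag
MRPL50: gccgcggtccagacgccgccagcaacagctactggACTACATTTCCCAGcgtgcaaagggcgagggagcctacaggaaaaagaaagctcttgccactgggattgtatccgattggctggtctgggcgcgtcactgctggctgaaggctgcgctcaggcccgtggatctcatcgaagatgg
MRPS22: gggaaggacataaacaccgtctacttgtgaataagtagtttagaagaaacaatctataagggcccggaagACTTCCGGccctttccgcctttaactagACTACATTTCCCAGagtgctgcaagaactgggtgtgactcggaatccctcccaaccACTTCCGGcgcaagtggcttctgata
MRPS10: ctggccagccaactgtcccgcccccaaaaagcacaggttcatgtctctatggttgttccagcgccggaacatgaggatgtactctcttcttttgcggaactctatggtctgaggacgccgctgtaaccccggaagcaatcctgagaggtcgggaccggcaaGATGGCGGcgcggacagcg

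MRPL47 lies on the minus strand at chr3:179604609-179604788 and MRPL24 on the minus strand at chr1:156741059-156741238. The window of MRPL42 is chr12:93467364-93467543 (plus strand), that of MRPL50 chr9:101398589-101398768 (minus strand), that of MRPS22 chr3:139343844-139344023 (plus strand) and that of MRPS10 chr6:42217832-42218011 (minus strand). Over windows of 300 bases (250 before the start to 50 after), 67 members had at least 1 entry. Of these, 13 (19.4%) held GATGGCGG, against 640 of 15843 protein-coding genes (4.04%). The same 13 held the longer YY1 form with 2 more bases, against 2.22% of protein-coding genes. The members holding it were MRPL22, MRPL32, MRPL36, MRPL38, MRPL42, MRPL46, MRPL50, MRPL52, MRPS10, MRPS18A, MRPS18B, MRPS24 and MRPS30, and in MRPL50 it runs past the last base printed and is not marked. CCGGAAGT was held by 11 members (16.4%) and by 6.97% of protein-coding genes. The ZNF143 element was held by 4 members (5.97%: MRPL24, MRPL42, MRPL50 and MRPS22) and by 1.17% of protein-coding genes. A looser form of it, with 2 free positions, was held by 5 members (7.46%, MRPL19 in addition) and by 1.83%. MRPL38, MRPL42, MRPL50, MRPL52 and MRPS22 held more than 1 of the ETS, YY1 and ZNF143 letters.

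In all 15 strings were searched, 13 at first, and the 2 ZNF143 forms were added after their letters had been read in promoters of members far from control. Of the others, GCATGCGC, the core of the NRF1 element, was in 8.96% of members against 4.89% of protein-coding genes, and its longer form with 2 more bases in 1.49% against 1.99%. The ETS core CGGAAG was in 55.2% against 29.7%, and TATAAA in 4.48% against 12.4%. CCAATC was in 19.4% against 21.5%, GGGCGG in 59.7% against 64.3%, and CACGTG in 13.4% against 10.9%. TGATGNAAN, TTTCCCGC and TGACGTCA were each in 1 member (1.49%), against 3.6%, 2.65% and 3% of protein-coding genes. A match is a match of letters only, and these shares were not tested.

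As a family, the 74 members tested stood slightly above control with both siRNAs, with most members close to it. Their median ratios were 0.19 (siTMPO-AS1 #1) and 0.27 (siTMPO-AS1 #2) on the log2 scale, against 0.02 and 0.09 over all 16808 genes tested. After quantile normalization they were 0.26 and 0.16, against 0.08 and 0.01 over all genes tested, so which siRNA gave the higher median depended on the normalization. The quartiles of the members lay at -0.21 and 0.42 with siTMPO-AS1 #1 and at -0.04 and 0.53 with siTMPO-AS1 #2. With both siRNAs 36 members (48.6%) lay above control, 13 (17.6%) below it, and 25 (33.8%) went opposite ways. Over all genes tested these shares were 35.4%, 25.4% and 39.1%. No error can be given for a median over members, because genes of 1 complex measured on the same arrays are not replicates.

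By share, members past 1.5-fold were fewer than genes at large with siTMPO-AS1 #1 and about as frequent with siTMPO-AS1 #2. These differences in share were not tested. With siTMPO-AS1 #1, 13 members were past 1.5-fold on the high side and 8 on the low side, together 28.4% of members, where the backgrounds were 16.6% higher and 18.8% lower (35.4% in either direction). With siTMPO-AS1 #2, 15 stood higher and 4 lower, together 25.7%, where the backgrounds were 16.1% and 10.4% (26.5% in either direction). The split with siTMPO-AS1 #2 was 13 higher and 6 lower when each array was centred on its median, and 11 and 6 after quantile normalization of the named probe sets. With both siRNAs 7 members were higher (background 5.42%) and 1 was lower (background 4.07%). A further 2 passed 1.5-fold in opposite directions (background 3.3%), and 44 of 74 passed it with neither siRNA (59.5%, background 50.9%). At 2-fold, 0 members passed with both siRNAs, where 1.07% of genes were higher and 1.15% lower.

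In limma, which tests the mean of the 2 siRNA arrays against control, 0 of 74 members had an adjusted p under 0.05 (background 0%), and 0 had an unadjusted p under 0.05 (background 1.55%, 261 genes). Every member tested had an adjusted p of 1.00. Only 1 residual degree of freedom was left, and the spread was the difference between 2 different siRNAs, so this count does not show that the members did not differ from control.

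**Figure D1:**
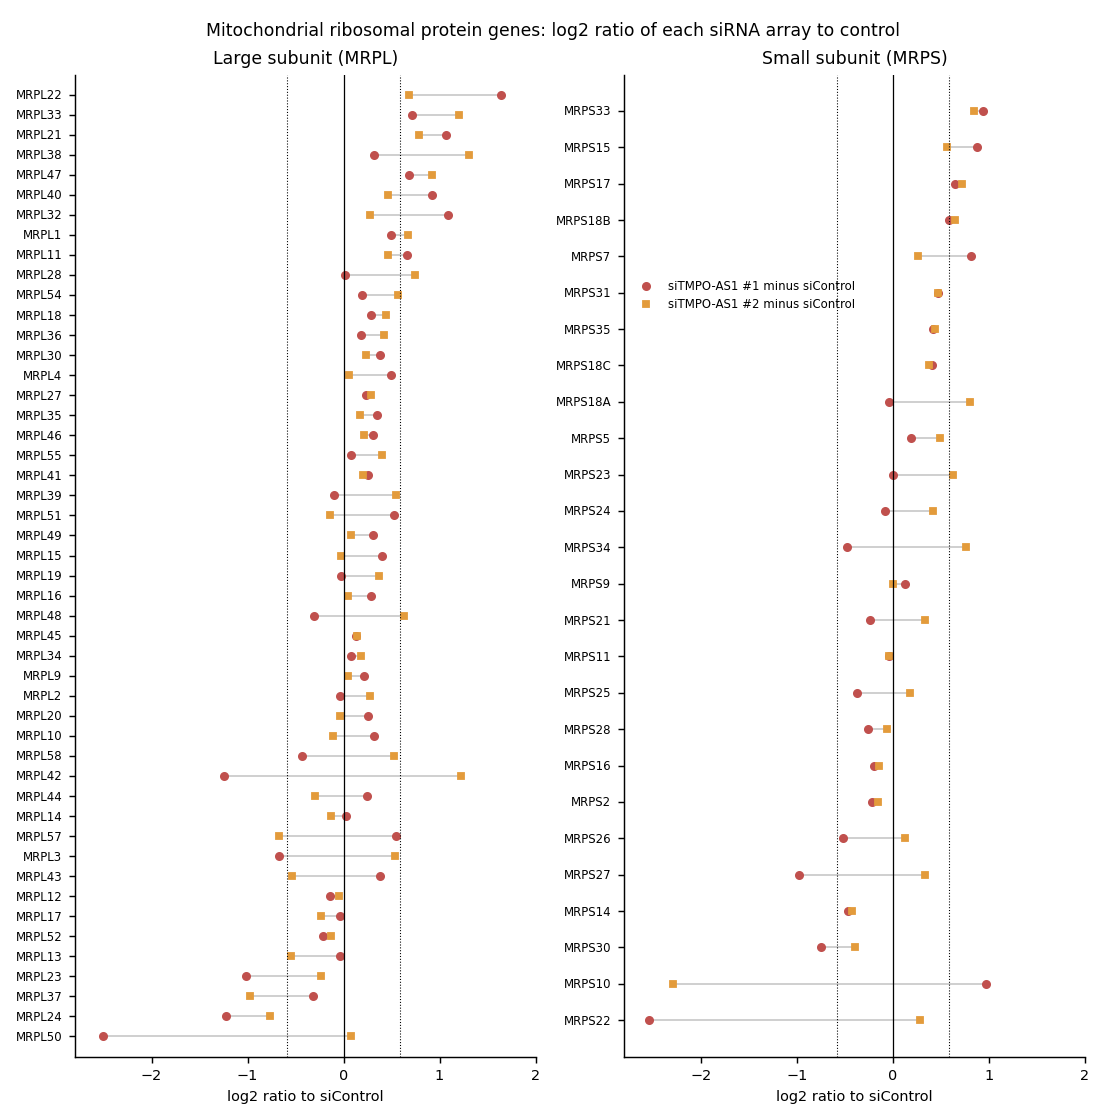
Log2 ratio to siControl of each of the 74 members tested, with siTMPO-AS1 #1 as red circles and siTMPO-AS1 #2 as orange squares (1 array each), sorted by the mean of both ratios within the symbol's subunit. Dotted lines mark 1.5-fold; most members lie between them, 7 lie to the right with both siRNAs, and MRPL24 alone lies to the left with both.

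Comparing the subunits, the median log2 ratio of the 48 large-subunit members was 0.24 with siTMPO-AS1 #1, against -0.04 for the 26 small-subunit members tested. With siTMPO-AS1 #2 the order was the other way, 0.21 for the large subunit and 0.34 for the small subunit. The large subunit minus the small subunit was thus 0.28 and -0.13. Placing MRPS18A and MRPS30 with the large subunit, where they sit in the structure, gave 0.25 and -0.13. The 10 mitochondria-specific proteins of the small subunit by structure had medians of -0.18 and 0.46, with 5 above control with siTMPO-AS1 #1 and all 10 with siTMPO-AS1 #2. This group was picked from several after values were seen. Of the 20 mitochondria-specific proteins of the large subunit, 11 and 13 were above control (medians 0.16 and 0.17). In the small subunit it was 6 and 6 of 10 universal-family and 1 and 2 of 4 bacterial-family members. With siTMPO-AS1 #1, 33 of 48 large-subunit and 12 of 26 small-subunit members were above control, and with siTMPO-AS1 #2 33 of 48 and 19 of 26. Over all genes tested, 51.9% were above control with siTMPO-AS1 #1 and 58.1% with siTMPO-AS1 #2. Past 1.5-fold with both siRNAs were 4 large-subunit members higher and 1 lower, and 3 small-subunit members higher and 0 lower. The backgrounds were 5.42% higher and 4.07% lower. The sign of the subunit difference depended on the siRNA, and no test of it is possible with 1 array each.

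**Figure D2:**
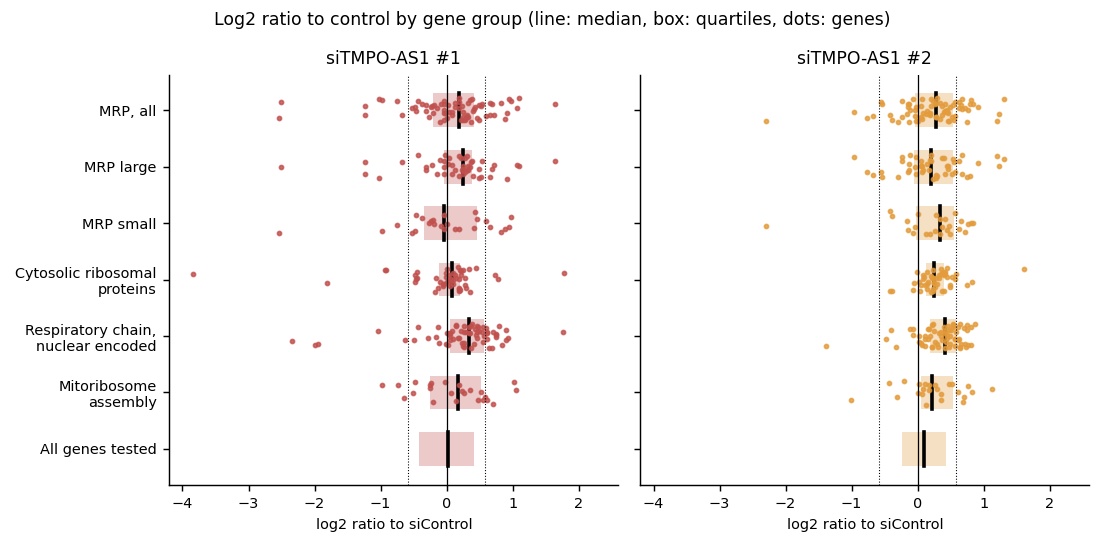
Log2 ratio to siControl by gene group for siTMPO-AS1 #1 (left) and #2 (right), with each gene as a dot, the median as a line and the quartiles as a box. The small-subunit median is -0.04 with siTMPO-AS1 #1 and 0.34 with siTMPO-AS1 #2, and the respiratory chain median, 0.34 and 0.42, lies above that of all members, 0.19 and 0.27.

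In the large subunit 4 members and in the small subunit 3 stood at least 1.5-fold above control with both siRNAs. MRPS33, a mitochondria-specific protein of the small-subunit head, had log2 signals of 9.43 and 9.33 with siTMPO-AS1 #1 and #2, against 8.49 with siControl. MRPL21, of a bacterial family, had 10.92 and 10.64 with the siRNAs, against 9.85 with siControl. MRPL33, a small bacterial-family protein of the central protuberance, had 8.69 and 9.18 with the siRNAs, against 7.97 with siControl. In each of these 3 genes both siRNA arrays were higher than the control array by more than they differed from each other. That also held for MRPL47, MRPS17 and MRPS18B, described next, but not for MRPL22. The smaller folds of the 3 genes were 1.79, 1.72 and 1.64.

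MRPL47, a universal-family protein at the rim of the exit tunnel, had log2 signals of 12.29 and 12.52 with siTMPO-AS1 #1 and #2, against 11.60 with siControl. MRPL22, which lines the exit tunnel, had 9.65 and 8.68 with the siRNAs, against 8.01 with siControl, with log2 ratios of 1.64 and 0.68. The limma mean of MRPL22 was 1.16 (SE 0.59, adjusted p = 1.00, higher on 2 of 2 arrays). MRPS17, a universal-family protein of the small subunit, had 10.79 and 10.87 with the siRNAs, against 10.14 with siControl. MRPS18B had 12.58 and 12.64 with the siRNAs, against 11.99 with siControl, which put it just inside the 1.5-fold threshold (log2 ratios 0.59 and 0.65). MRPS15, with log2 ratios of 0.88 and 0.57, lay just outside it.

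MRPL24, another universal-family protein at the exit of the tunnel, was the 1 member at least 1.5-fold lower with both siRNAs. Its log2 signals were 8.38 with siTMPO-AS1 #1 and 8.85 with siTMPO-AS1 #2, against 9.61 with siControl, so both siRNA arrays were low. It stood 2.35-fold and 1.70-fold below control (limma mean -0.998, SE 0.48, adjusted p = 1.00, lower on 2 of 2 arrays). Its promoter, printed above, held the ZNF143 element at 2 places.

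**Figure D3:**
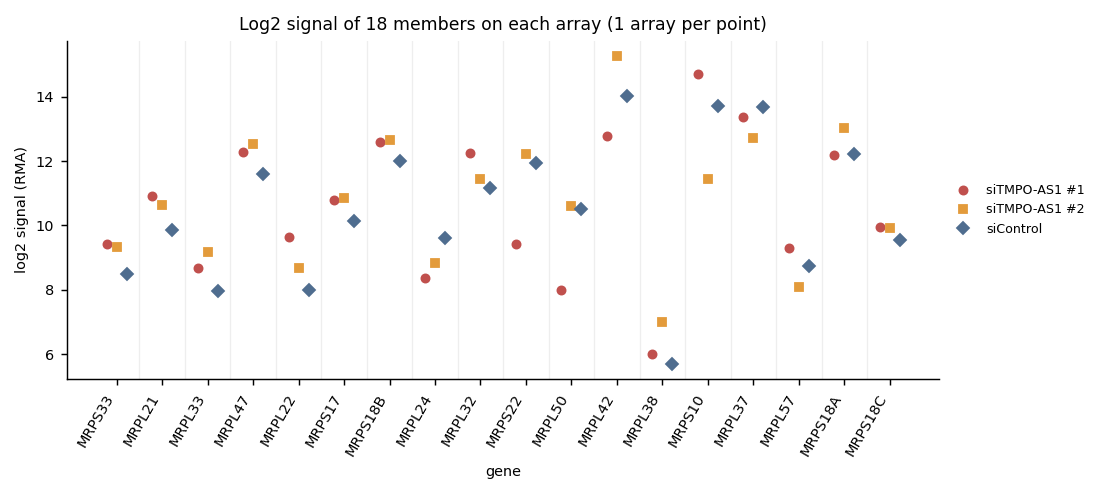
Log2 signal (RMA) of 18 members on each of the 3 arrays, with siTMPO-AS1 #1 left, siTMPO-AS1 #2 in the middle and siControl right for each gene. The first 7 genes are higher and MRPL24 lower on both siRNA arrays than on the control array, while MRPS22, MRPL50, MRPL42 and MRPS10 stand apart on 1 siRNA array or on both in opposite directions.

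Among the 4 listed sites with members tested, the central protuberance had the highest share of members above control with both siRNAs. Of the 8 members that the site list used here places there, 7 were above control with both siRNAs. The share was 35.4% of all genes tested and 48.6% of all members. Of these 8, 0 were below with both, against 25.4% and 17.6%. The site list may leave out other members of this site, so these counts rest on the list. It gives no site to MRPL52 (log2 ratios -0.22 and -0.13), MRPL58 (-0.44 and 0.53) or MRPL55 (0.08 and 0.40). The medians over the 8 were 0.31 and 0.45. MRPL38 had log2 ratios of 0.32 and 1.31, MRPL40 0.92 and 0.46, MRPL18 0.28 and 0.44, MRPL46 0.31 and 0.21, MRPL35 0.35 and 0.17, and MRPL27 0.24 and 0.29. MRPL48, with -0.31 and 0.63, was the exception among the 8. MRPL38 is a mitochondria-specific member and had log2 signals of 6.03 and 7.02 with siTMPO-AS1 #1 and #2, against 5.71 with siControl.

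Around the exit tunnel the members went both ways, with medians of 0.05 and -0.05 over 8 genes. Besides MRPL22, MRPL47 and MRPL24, MRPL23 had log2 ratios of -1.02 and -0.24, and its dimmer probe set -1.04 and 0.11. MRPL45, which ties the ribosome to the inner membrane, had 0.13 and 0.14, MRPL44 had 0.25 and -0.30, MRPL39 had -0.11 and 0.54 and MRPL17 had -0.04 and -0.24. In the stalk, which recruits translation factors, MRPL11 had 0.66 and 0.47, MRPL10 had 0.32 and -0.11 and MRPL12 had -0.15 and -0.05.

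In the head of the small subunit the medians over 8 genes were 0.44 and 0.34. Of these genes 5 (62.5%) were above control with both siRNAs and 1 (12.5%) was below. These shares were 35.4% and 25.4% over all genes tested, and 48.6% and 17.6% over all members. MRPS7 had log2 ratios of 0.82 and 0.27, MRPS31 had 0.47 and 0.47, and MRPS35 had 0.42 and 0.44. MRPS14 was the member below control with both, at -0.46 and -0.42. MRPS10 lay in opposite directions, as described below.

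The 3 paralogs of the MRPS18 family differed in their ratios. MRPS18A, which sits in the large subunit, had log2 signals of 12.19 and 13.03 with siTMPO-AS1 #1 and #2, against 12.23 with siControl, and so stood apart only with siTMPO-AS1 #2 (log2 ratios -0.04 and 0.80). MRPS18B, classed here as mitochondria-specific, had ratios of 0.59 and 0.65. MRPS18C, classed here with a bacterial family, had log2 signals of 9.96 and 9.92 with the siRNAs, against 9.55 with siControl (0.41 and 0.37).

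The members farthest from control stood there with 1 siRNA only. MRPS22, a mitochondria-specific protein of the small subunit whose mutations cause respiratory chain deficiency, had log2 signals of 9.41 and 12.23 with siTMPO-AS1 #1 and #2, against 11.95 with siControl. It was 5.81-fold lower with siTMPO-AS1 #1 and 1.21-fold higher with siTMPO-AS1 #2. MRPL50, a mitochondria-specific protein of the large subunit, had 8.01 with siTMPO-AS1 #1 and 10.59 with siTMPO-AS1 #2, against 10.51 with siControl, a 5.67-fold lower signal with siTMPO-AS1 #1 alone. In both genes the arrays of siTMPO-AS1 #2 and siControl lay close together and that of siTMPO-AS1 #1 far below.

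MRPS10 and MRPL42 passed 1.5-fold in opposite directions. MRPS10, a universal-family protein of the small-subunit head, had log2 signals of 14.70 and 11.43 with siTMPO-AS1 #1 and #2, against 13.72 with siControl, or 1.96-fold higher and 4.91-fold lower. Its pseudogene MRPS10P1 had 15.21 and 11.50 with the siRNAs, against 14.09 with siControl. The dimmer MRPS10P5 had 5.50 and 5.45 with the siRNAs, against 6.46 with siControl, and so was low with both. Signals of MRPS10 and MRPS10P1 may each hold RNA of the other, so which of them gave these values is uncertain. MRPL42 had 12.79 with siTMPO-AS1 #1 and 15.26 with siTMPO-AS1 #2, against 14.03 with siControl, or 2.37-fold lower and 2.34-fold higher. Of its pseudogenes with a probe set of their own, MRPL42P2, MRPL42P3, MRPL42P4 and MRPL42P6, none had a signal above 3.79.

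Among the other members past 1.5-fold with 1 siRNA, MRPL32, whose maturation is a step in building the large subunit, had log2 signals of 12.25 and 11.44 with siTMPO-AS1 #1 and #2, against 11.16 with siControl. MRPL37 had 13.35 and 12.70 with the siRNAs, against 13.67 with siControl, and was low mainly with siTMPO-AS1 #2. MRPL57 had 9.30 and 8.08 with the siRNAs, against 8.75 with siControl, one array on either side of control. MRPS27 had ratios of -0.97 and 0.34, MRPS34 had -0.48 and 0.77, MRPL3 had -0.67 and 0.53, and MRPS30 had -0.75 and -0.39. Members close to control on both arrays included MRPS11 (-0.04 and -0.04), MRPL45, MRPL34 (0.08 and 0.19), MRPL9 (0.22 and 0.05) and MRPS16 (-0.20 and -0.14).

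Setting the siRNA arrays against each other leaves the control array out. The median of siTMPO-AS1 #1 minus siTMPO-AS1 #2 was -0.06 over the members and -0.07 over all genes tested. Of the members 7 were at least 1.5-fold higher with siTMPO-AS1 #1 (background 14.9%) and 15 at least 1.5-fold lower (background 22.7%), together 29.7% against a background of 37.6%. Of the 30 mitochondria-specific members 16 were past 1.5-fold between the siRNAs (53.3%), against 4 of 26 universal-family members (15.4%) and 2 of 18 bacterial-family members (11.1%). These classes follow the names of the protein families, which place MRPS18A and MRPS18B apart from their paralog MRPS18C, of a bacterial family. MRPS18A (difference -0.85) was counted among the 16 and MRPS18B (-0.06) was not. Classing them with MRPS18C would change these counts and widen the bacterial-family range given below. The largest differences were 3.27 for MRPS10, -2.82 for MRPS22, -2.58 for MRPL50 and -2.47 for MRPL42. MRPS10 is of a universal family, and its signal may hold RNA of MRPS10P1. The range was -2.82 to 1.21 over mitochondria-specific members and -1.20 to 3.27 over universal-family members. Over bacterial-family members it was -0.72 to 0.81. The classes were set side by side after several groupings of the members had been looked at, by their counts alone, with no test, and genes on the same arrays are not replicates.

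**Figure D4:**
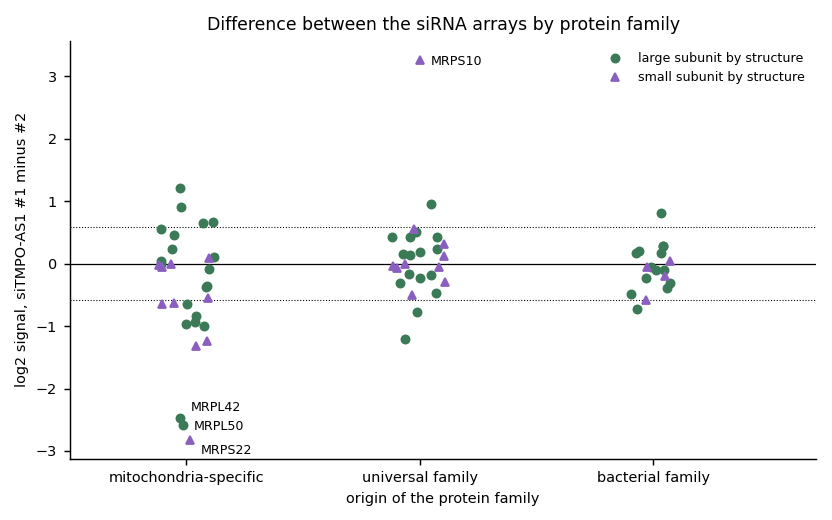
Log2 signal with siTMPO-AS1 #1 minus that with siTMPO-AS1 #2 for the 74 members tested, by origin of the protein family, with large-subunit proteins by structure as circles and small-subunit proteins as triangles. Dotted lines mark 1.5-fold, past which lie 16 of 30 mitochondria-specific, 4 of 26 universal-family and 2 of 18 bacterial-family members.

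The 13 members with GATGGCGG had median log2 ratios of 0.19 and 0.42, against 0.19 and 0.28 for the 53 members tested without it. The 11 members with CCGGAAGT had 0.25 and 0.29, against 0.13 and 0.28. The 4 members with the ZNF143 element had -1.87 and 0.18, against 0.20 and 0.31, and the 5 with its looser form -1.24 and 0.28. This element was searched for because it had been seen in these members, so their medians are a description of a chosen pattern. The 159 protein-coding genes tested that hold it had medians of -0.07 and 0.16, against 0.02 and 0.09 over all genes tested.

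Neighbouring genes were looked at after the values were seen. Of the 67 members with a promoter entry, 20 (29.9%) had a protein-coding gene on the opposite strand that starts within 1000 bases upstream, against 12.3% of 15843 protein-coding genes. Of the 15 pairs with both genes tested, member and neighbour were on the same side of control in 8 with siTMPO-AS1 #1 and in 5 with siTMPO-AS1 #2. MRPL46 and MRPS11 are head-to-head neighbours of each other, with log2 ratios of 0.31 and 0.21 for MRPL46 and -0.04 and -0.04 for MRPS11. ZNF189, the neighbour of MRPL50, had 0.36 and 0.11 where MRPL50 had -2.50 and 0.08. PSMA2, a proteasome subunit gene next to MRPL32, had -1.01 and -0.25 where MRPL32 had 1.09 and 0.28. The neighbour of MRPS18B, PPP1R10, had 0.21 and -0.86. NCAPD2, the neighbour of MRPL51, had 0.74 and -0.12 where MRPL51 had 0.52 and -0.14, and GGA3, next to MRPS7, had 0.75 and -0.08 where MRPS7 had 0.82 and 0.27.

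Other genes of mitochondrial protein synthesis lay near the members. Of the ribosomal proteins with other symbols, DAP3 had log2 ratios of 0.16 and 0.40, PTCD3 had 0.90 and 0.31, CHCHD1 had 0.04 and -0.25 and GADD45GIP1 had 0.03 and 0.53. The 24 assembly factor genes tested (of 27 listed) had medians of 0.17 and 0.22. Of them, 3 were 1.5-fold higher with both siRNAs (background 5.42%) and 0 lower (background 4.07%). These were RPUSD4 (1.01 and 1.12) and TRUB2 (0.70 and 0.70), which belong to the pseudouridine synthase family, and MRM3 (1.04 and 0.61), a methyltransferase of the large ribosomal RNA. Of 14 translation factor genes 0 passed with both siRNAs in the same direction (medians 0.09 and 0.11). Of 13 mitochondrial aminoacyl-tRNA synthetase genes 2 were higher and 0 lower, NARS2 (0.80 and 0.91) and WARS2 (0.74 and 0.72), with medians of 0.44 and 0.30. The 4 mitochondrial transcription genes tested had medians of 0.36 and 0.31.

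The products of the ribosome are encoded in mitochondrial DNA, and 8 of the 15 genes listed there had a value. Their medians were 0.01 and -0.01, and 6 of the 8 had log2 signals above 16 on all 3 arrays, such as COX1 with 19.57 and 19.59 with siTMPO-AS1 #1 and #2 and 19.60 with siControl. Whether signals this high can still follow a change in RNA was not tested. The medians therefore do not show that these RNAs were unchanged. ND2 had 16.39 and 15.52 with the siRNAs, against 15.25 with siControl, and ND6 had log2 ratios of 0.15 and 0.25.

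Against the nearest comparable gene groups, the members were closer to control than the nuclear genes of the respiratory chain. Those had medians of 0.34 and 0.42 over 66 genes. Of these, 8 were higher by 1.5-fold with both siRNAs (background 5.42%) and 0 lower (background 4.07%). Above control with both were 47 of 66 (71.2%), against 35.4% of all genes tested. NDUFA13 had log2 ratios of 0.84 and 0.75, UQCR10 0.80 and 0.81 and ATP5F1A 0.90 and 0.76. Cytosolic ribosomal protein genes had medians of 0.07 and 0.25 over 48 genes, with 2 higher and 0 lower, RPS19 (1.78 and 1.60) and RPS26 (0.74 and 0.75). These groups are set side by side by their counts and medians, and the differences between them were not tested.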

How the data were processed

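The authors deposited a log2 signal for each of 138745 probe sets per array. RMA and the Expression Console software made it, per the submitters' processing notes. The sources used here give no version, annotation or genome build. RMA sets the arrays to 1 common distribution, so a shift shared by all genes cannot be seen. The array medians lay between 3.73 and 3.75. Of all probe sets 1506 exceeded 16 on an array, more than the log2 of a 16-bit scan allows, so folds are those of the deposited scale. Arrays have no read depth, and their number limits the precision.

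Names came from the platform annotation, in which 36176 probe sets had exactly 1 symbol. The brightest probe set stood for a gene. A gene entered the tests at or above the median of gene means over the 3 arrays. limma 3.58.1 in R 4.3.3 (lmFit, then eBayes) set both siRNA arrays against control in a two-sided test. The p-values were adjusted by Benjamini-Hochberg over all genes tested, with a threshold of 0.05. The fit was also run on simulated data with far less noise than these arrays, which checks the code and not the power here. The p-values measure the spread between these samples alone, possibly a technical one, and the lone control was assumed to vary like the siRNA arrays. A size rule of 1.5-fold was used for single arrays.

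The members and gene lists were chosen with earlier results of these data known. Values on all arrays are given for members past 1.5-fold with both siRNAs, for the 3 highest and 3 lowest with each siRNA and between them, and for the MRPS18 paralogs. Other members are named by subunit, site or promoter letters. From other lists up to 3 genes past 1.5-fold with both siRNAs are named. The ribosomal proteins with other symbols, COX1, ND2, ND6, TMPO-AS1, head-to-head neighbours and pseudogenes are named outside this rule, after their values were seen. Promoters were taken from RefSeq (GRCh38.p14), 250 bases before to 50 after each start, for 67 of 75 members. Of 15 motif strings searched, 2 were added after their letters had been seen in members far from control. The 6 printed promoters, their window of 180 bases, and the grouping by origin of the protein families were also chosen after values were seen. Several groupings (by symbol, structure, site and origin) were looked at.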

Additional observations from a re-analysis of the deposited data

How the results depend on the processing

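Alternatives were no filter on dim genes, a stricter filter at the 75th percentile of gene means, centring of arrays, quantile normalization of the named probe sets, the mean of all probe sets of a gene, probe sets above 16 left out, subunits by structure, a 2-fold threshold, an intensity trend in limma, and each siRNA array left out. Of 96 values of the family recomputed under them, 83 stayed within the spread between the siRNA arrays (counts within 1.5 times). That count does not measure stability. The mean of all probe sets and leaving out those above 16 gave the same family values as the main setting. For the subunit difference the spread was so wide that a change from 0.07 to -0.13 counted as within it. After quantile normalization the family medians were 0.26 with siTMPO-AS1 #1 and 0.16 with siTMPO-AS1 #2, where those of all genes tested were 0.08 and 0.01, which turned their order round; the cause was not tested. With 1 siRNA array left out, the family median of 0.16 for the mean ratio became 0.19 to 0.27, the large minus small subunit difference of 0.07 became -0.13 to 0.28, and the counts past 1.5-fold became 13 to 15 higher and 4 to 8 lower, since a single array then decided them. A 2-fold threshold left 0 higher and 0 lower with both siRNAs (backgrounds 1.07% and 1.15%), since fewer genes can pass. It left 3 higher and 5 lower with siTMPO-AS1 #1, and 3 higher and 1 lower with siTMPO-AS1 #2. The 2-fold shares of all genes with a single siRNA were not computed, so the counts per siRNA have no background. limma called 0 members in each setting run with both siRNA arrays. With 1 siRNA array left out no residual degree of freedom remains, so limma was not run. No filter on dim genes gave 1 member with an unadjusted p under 0.05. The mean ratios of the 18 named members kept their sign in every setting run that kept both siRNA arrays (MRPL38 has no value under the stricter filter, which leaves it out). With 1 left out, the sign for MRPL42, MRPL50, MRPL57, MRPS10, MRPS18A and MRPS22 depended on which siRNA remained. No paired analysis was possible because 1 control array stands against both siRNA arrays.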

Other observations

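Probe sets that carry more than 1 symbol were not counted among the members. The probe set shared by SLC5A3 and MRPS6 had ratios on the log2 scale of -0.22 (siTMPO-AS1 #1) and 0.72 (siTMPO-AS1 #2), and that shared by CCDC142 and MRPL53 had 0.70 and -0.29.

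Of 73 pseudogenes of mitochondrial ribosomal protein genes with a value, 16 passed the filter on dim genes, and 13 of these had a member as parent. MRPL45P2 had log2 ratios of 0.16 and 0.29, where MRPL45 had 0.13 and 0.14. MRPS31P5 had 0.95 and -0.72, where MRPS31 had 0.47 and 0.47. MRPL48P1 had -0.13 and 1.68, where MRPL48 had -0.31 and 0.63, and MRPS21P6 had 1.37 and 0.76, where MRPS21 had -0.24 and 0.34. Signals of genes and pseudogenes with near-identical sequence may each hold RNA of the other.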
